A study of Mus musculus with 4 samples.

Results

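The mitochondrial genome of the mouse carries 37 genes, and all 37 had an identifier among the 39179 gene identifiers counted in these libraries. They were taken as every gene whose symbol starts with mt-. They are 13 messenger RNA (mRNA) genes, 2 ribosomal RNA (rRNA) genes and 22 transfer RNA (tRNA) genes. RNA came from T cells of OT-II mice, whose transgenic T cell receptor recognises ovalbumin. The cells had been transferred into C57BL/6 recipients, which were immunised under the skin with ovalbumin coupled to nitrophenol. On day 8 the transferred Thy-1.1+ CD44hi cells of pooled inguinal lymph nodes were sorted into 2 populations. Those with CXCR5 and PD-1 on the surface are T follicular helper (Tfh) cells, the T cells that support B cells in the follicle, and those with neither are called non-Tfh cells. Each population gave 2 libraries, which carry the numbers T32 and T53. The labels do not say what the numbers mark or whether separate animals stand behind them, so the spread behind each p-value is that of these libraries alone and may be technical. Age and sex of the mice are not given in the sources used here.

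Mitochondrial DNA is a small circle that is transcribed on both strands into long RNAs spanning many genes. Most mRNAs and rRNAs are flanked by tRNAs, whose excision by RNase P and ELAC2 releases the other RNAs. The mRNAs encode core subunits of the respiratory chain and of ATP synthase, and the rRNAs form the mitochondrial ribosome that translates them. In activated T cells the respiratory chain supplies ATP and allows aspartate synthesis, while all other proteins of the organelle come from nuclear genes. In the annotation 28 of the 37 genes lie in plus orientation, among them 12 of the 13 mRNA genes, both rRNA genes and 14 tRNA genes. In minus orientation lie mt-Nd6 and 8 tRNA genes.

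The total count ran from 5725358 to 13360563 per library, and 1 count was worth 0.0748 to 0.175 CPM, which is the count relative to the library total. Summed markers of T cells (5 genes, among them Cd3e and Cd4) ran from 6365 to 7951 CPM. Summed Tfh markers (6 genes, among them Cxcr5, Bcl6 and Il21) ran from 1952 to 2159 CPM in Tfh and from 177 to 189 CPM in non-Tfh libraries, in the order of the sort. The 4 markers of activated non-Tfh cells, among them Ccr7 and Il7r, summed to 24.8 and 26.9 CPM in Tfh and 422 and 461 CPM in non-Tfh libraries. Of the B cell markers, Cd79a measured at most 0.674 CPM, Ms4a1 at most 0.899 CPM and Cd79b at most 1.49 CPM in any library. Pax5 measured 5.11 and 5.24 CPM in Tfh and 0 and 0.450 CPM in non-Tfh libraries. Cd74, which antigen-presenting cells in general express, measured 2.68 and 5.59 CPM in Tfh and 15.1 and 20.01 CPM in non-Tfh libraries. The 5 macrophage and monocyte markers summed to 4.94 and 4.72 CPM in Tfh and 2.46 and 6.97 CPM in non-Tfh libraries, and the 3 dendritic cell markers, with Siglech at 0, to 1.42 to 3.60 CPM. The 3 plasma cell markers summed to 90.2 and 86.3 CPM in Tfh and 74.6 and 75.4 CPM in non-Tfh libraries, nearly all of it Xbp1, with Jchain at most 1.24 CPM. The 4 stromal and endothelial markers summed to 211 to 237 CPM, nearly all of it Pecam1, with Pdpn at 0 and Cdh5 at most 0.298 CPM. The 2 CD8 T cell markers summed to 3.60 to 6.20 CPM, with Cd8a at most 0.149 CPM. The 3 granulocyte and the 3 erythroid markers summed to at most 0.112 CPM in every library. The part of these markers in the results was not tested. Since these are bulk samples, a change in the number of mitochondria-rich cells and a change in RNA per cell cannot be told apart.

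Every mitochondrial RNA abundant enough to test had a higher fitted level in Tfh than in non-Tfh cells, by 1.14-fold to 1.26-fold, and none passed the test. The 14 tested genes were 12 mRNAs and both rRNAs; mt-Nd4l and the 22 tRNAs had too few counts. Of all 11702 genes tested, 994 passed an adjusted p of 0.05 with edgeR's quasi-likelihood test and Benjamini-Hochberg adjustment (8.49% called), against 0 of the 12 mRNAs and 0 of the 2 rRNAs. Without adjustment 1 of the 14 had an edgeR p under 0.05, mt-Atp8, as did 2571 of all 11702 genes tested. DESeq2 and limma-voom also called none of the 14, with 3 and 2 unadjusted. With the library number as a replicate block in the edgeR model, 2120 of all 11702 genes tested passed, in place of 994. Among them were 2 of the 12 mRNAs, mt-Atp8 (adjusted p = 0.048) and mt-Nd4 (adjusted p = 0.0492). The median log2 fold change was 0.25 over the 12 mRNAs and -0.0054 over all genes tested, of which 5772 were positive. In 9 of the 12 mRNAs and both rRNAs the libraries of the groups did not overlap, both Tfh libraries lying higher, while 26.6% of all genes tested showed that pattern. The mitochondrial RNAs of a library share one RNA sample and long precursors, so they are not independent observations of the groups.

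**Figure D1:**
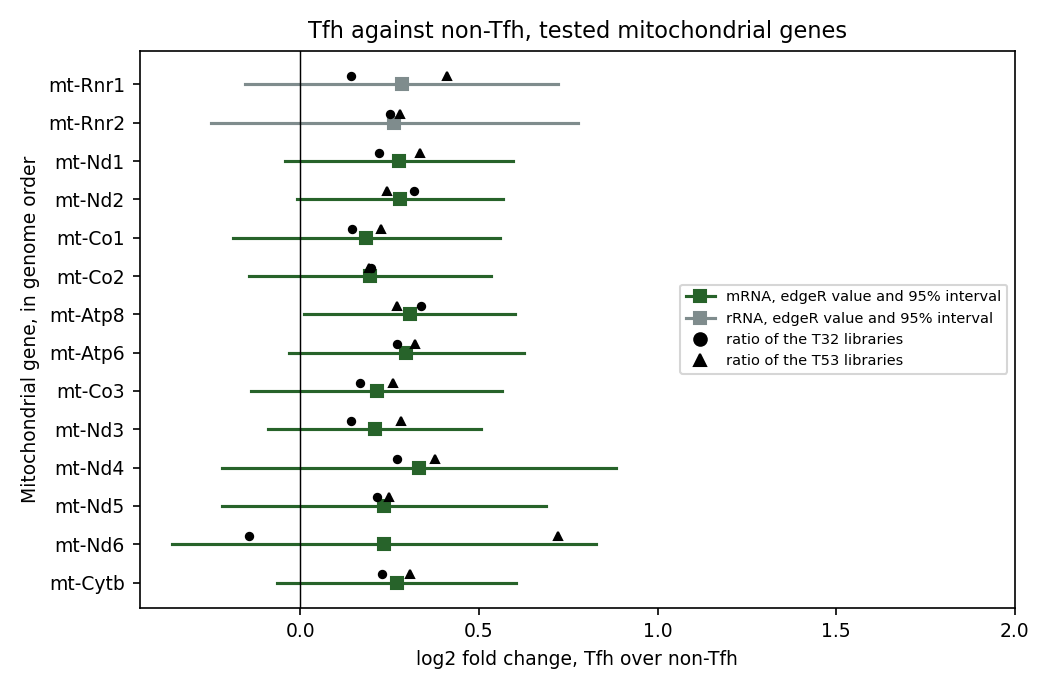
The log2 fold change of Tfh over non-Tfh cells (x axis) for the 14 tested mitochondrial genes in genome order (y axis), as the edgeR value (square) with its unadjusted 95% interval (line), in green for mRNAs and grey for rRNAs, with the ratio of the T32 libraries (circle) and of the T53 libraries (triangle) above it. All 14 squares lie right of 0, and the interval of mt-Atp8 is the one of the 14 that leaves out 0.

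The intervals limit how large a difference these libraries allow. The upper bound of the unadjusted 95% interval of the fold ran from 1.42 for mt-Nd3 to 1.84 for mt-Nd4, so no interval of the 14 reached 2-fold. The lower bound ran from 0.780 for mt-Nd6 to 1.01 for mt-Atp8.

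The share of each library that fell on mitochondrial genes was 22.2% and 20.4% in the Tfh and 19.6% and 17.2% in the non-Tfh libraries, here and below in the order T32 and T53. Both Tfh libraries were higher, with means of 21.3% ± 1.23 and 18.4% ± 1.68 (SD, n = 2 per group; exact permutation test, two-sided, p = 0.333, the smallest that 2 against 2 libraries allow). In Tfh cells the mRNAs held 1.71% of counts (exact Clopper-Pearson 95% interval 1.71 to 1.72%) and 1.82% (1.81 to 1.83%). In non-Tfh cells they held 1.57% (1.56 to 1.57%) and 1.57% (1.56 to 1.58%). The groups did not overlap, and the Tfh mean was 1.13 times the non-Tfh mean (exact permutation p = 0.333). Intervals cover counting error only. The rRNAs held 20.5% and 18.6% in Tfh and 18.0% and 15.6% in non-Tfh libraries (exact permutation p = 0.333). Among the mRNAs, genes of complex IV, the oxidase that passes electrons to oxygen, took the most, with 1.21% ± 0.0302 of counts in Tfh and 1.09% ± 0.0173 in non-Tfh cells.

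**Figure D2:**
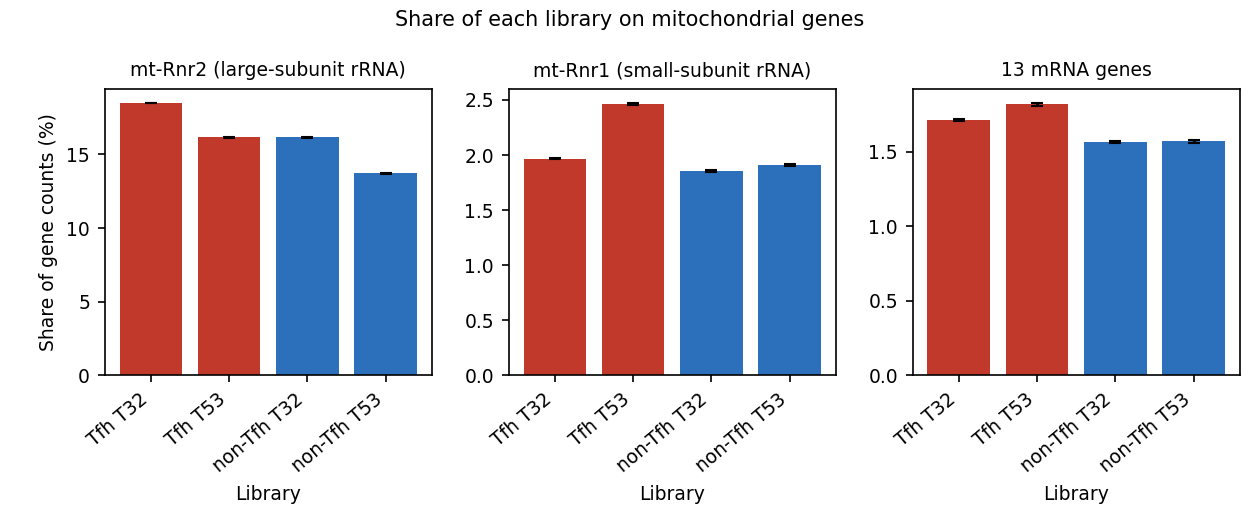
Share of the gene counts of each library in percent (y axes, from 0, with a separate scale in each panel) for mt-Rnr2, mt-Rnr1 and the 13 mRNA genes, with exact 95% intervals for counting error and Tfh libraries in red. The mRNA shares of 1.71% and 1.82% in Tfh lie above the 1.57% of both non-Tfh libraries, while for mt-Rnr2 the lower Tfh bar and the higher non-Tfh bar are nearly equal.

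Mitochondrial rRNAs were the largest part of these counts. The gene mt-Rnr2 (ENSMUSG00000064339, GRCm38 chrM:1094-2675), the rRNA of the large ribosomal subunit, ranked 1 of all genes tested by mean CPM. Its level was 120933 and 102057 CPM per kilobase of gene in Tfh and 101602 and 84177 in non-Tfh libraries. The lower Tfh library lay just above the higher non-Tfh library after scaling, and as plain shares of counts the 16.1% of Tfh T53 and the 16.2% of non-Tfh T32 were in the opposite order. The fold was 1.20 (log2 fold change 0.26 ± 0.213 SE, adjusted p = 0.554). The gene mt-Rnr1 (chrM:70-1024), the rRNA of the small subunit, measured 21329.7 and 25793 CPM per kilobase in Tfh and 19333 and 19385 in non-Tfh libraries. Its fold was 1.22 (0.28 ± 0.182, adjusted p = 0.448). The log2 fold change of mt-Rnr2 was 0.13 without non-Tfh T53, 0.14 without Tfh T32, 0.39 without Tfh T53 and 0.41 without non-Tfh T32. That of mt-Rnr1 was 0.15 without Tfh T53, 0.28 without non-Tfh T32, 0.29 without non-Tfh T53 and 0.42 without Tfh T32. Per length mt-Rnr1 stood at 0.176 and 0.253 of mt-Rnr2 in Tfh and at 0.19 and 0.23 in non-Tfh libraries, so this ratio overlapped between groups. In cells the ribosome holds both rRNAs in equal number. A total RNA kit was used, the labels do not say how rRNA was removed, and its part in these levels was not tested.

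Per length, the 13 mRNAs kept 1 order in all 4 libraries, from mt-Co1 at the top to mt-Nd6 and mt-Nd4l at the bottom. The subunits of cytochrome oxidase led. The catalytic subunit gene mt-Co1 (ENSMUSG00000064351, chrM:5328-6872) measured 4842 and 4928 CPM per kilobase in Tfh and 4379 and 4216 in non-Tfh libraries. This was a mean of 4885 ± 60.8 against 4298 ± 115 (SD, n = 2), a fold of 1.14 that did not pass (adjusted p = 0.569). The gene mt-Co3, for another core subunit, measured 3633 and 3599 CPM per kilobase in Tfh and 3232 and 3004 in non-Tfh libraries (fold 1.16, adjusted p = 0.476). The gene mt-Co2, for the subunit that takes electrons from cytochrome c, measured 2833 and 2695 CPM per kilobase against 2469.7 and 2357 (fold 1.15, adjusted p = 0.50). For each of these genes both Tfh libraries were above both non-Tfh libraries.

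The ATP synthase subunits came next. The gene mt-Atp6, which encodes a subunit of the proton channel, measured 2532 and 2606 CPM per kilobase in Tfh and 2097 and 2086 in non-Tfh libraries. The lowest Tfh library was 1.21 times the highest non-Tfh library, the widest gap among the 14 tested genes, and the fold of 1.23 did not pass (log2 fold change 0.30 ± 0.137, adjusted p = 0.276). The gene mt-Atp8, for a small subunit of the same enzyme, measured 1430.5 and 1279 CPM per kilobase against 1132 and 1061. Its fold of 1.24 (log2 fold change 0.31 ± 0.122) had the lowest p of the 14, at 0.0442 unadjusted and 0.212 adjusted with edgeR's quasi-likelihood test. Both proteins are read from 1 mRNA on which the reading frames overlap by 43 bases. How fragments that lie in both genes were counted was not tested, and this stretch is shown here for that reason. It lies at chrM:7927-7969 in GRCm38, plus strand, with the start codon of mt-Atp6 and the stop codon of mt-Atp8 in capitals.
mt-Atp8 and mt-Atp6 overlap: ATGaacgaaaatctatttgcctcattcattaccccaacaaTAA
Although 1 mRNA carries both, the counts per base of mt-Atp8 were 0.565 and 0.491 of those of mt-Atp6 in Tfh and 0.54 and 0.509 in non-Tfh libraries. The stretch is 43 of the 204 bases of mt-Atp8.

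**Figure D3:**
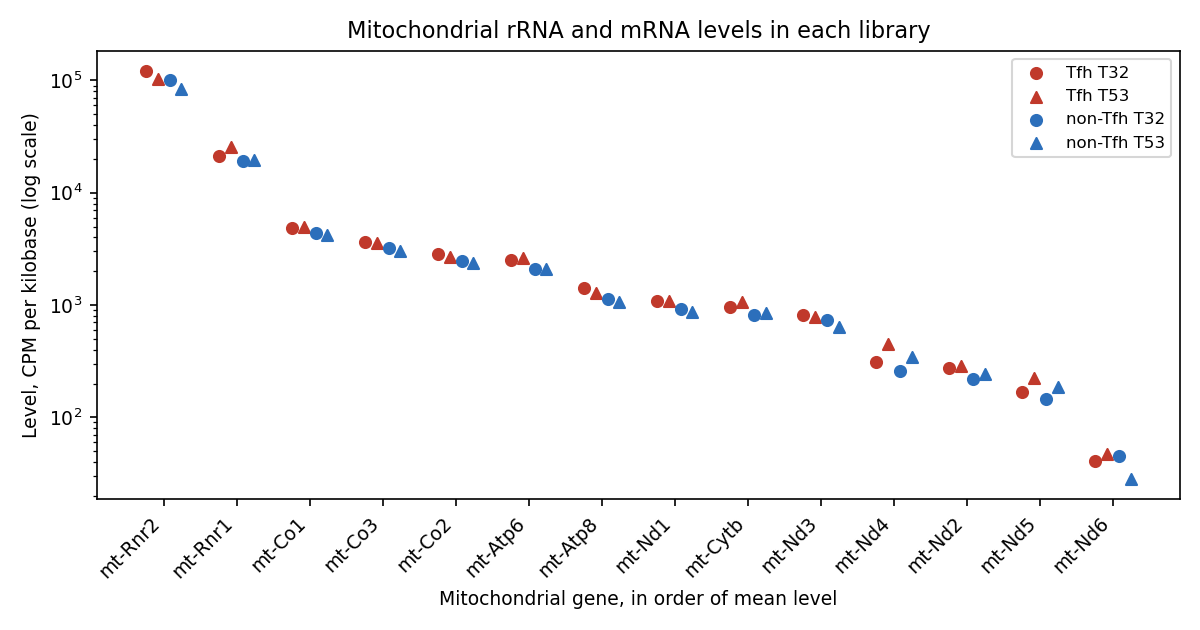
Level in CPM per kilobase of gene (y axis, log scale) of the 14 tested mitochondrial genes, in order of mean level (x axis), in each library, with Tfh in red, non-Tfh in blue, T32 as circles and T53 as triangles. The 2 rRNAs stand above all mRNAs, mt-Co1 leads the mRNAs at 4216 to 4928, and mt-Nd6 lies lowest at 28.4 to 46.8; mt-Nd4l, with 0 or 1 count per library, is left out.

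Cytochrome b and the complex I subunits were lower per length. The gene mt-Cytb, for the core of complex III, measured 955 and 1057 CPM per kilobase in Tfh and 815 and 854 in non-Tfh libraries (fold 1.21, adjusted p = 0.328). Complex I, which takes electrons from NADH, has 7 subunits encoded here. The gene mt-Nd1 measured 1075 and 1086 CPM per kilobase in Tfh against 924 and 861 in non-Tfh libraries (fold 1.21, adjusted p = 0.296). The gene mt-Nd3 measured 807 and 781 against 732 and 642 (fold 1.16, adjusted p = 0.405). For mt-Nd2 the levels were 273 and 285 against 219 and 241 CPM per kilobase (fold 1.21, adjusted p = 0.242). In these 4 genes the groups did not overlap. They did overlap in mt-Nd4, with 309 and 446 CPM per kilobase in Tfh against 256 and 344 in non-Tfh libraries (fold 1.26, adjusted p = 0.48), and in mt-Nd5, with 169.7 and 223 against 146 and 187 (fold 1.18, adjusted p = 0.552). The T53 library was the higher one of each group for mt-Nd4 and mt-Nd5. Each library left out moved their log2 fold changes by over 1.5 times. That of mt-Nd4, 0.33 with all libraries, was 0.058 without Tfh T53, 0.14 without non-Tfh T32, 0.56 without non-Tfh T53 and 0.58 without Tfh T32. That of mt-Nd5, 0.23 with all libraries, was 0.041, 0.066, 0.42 and 0.42 in the same order. For mt-Nd3 it was 0.12 without non-Tfh T53, against 0.21 with all libraries.

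The one mRNA gene in minus orientation, mt-Nd6 (ENSMUSG00000064368, chrM:13552-14070), encodes a membrane subunit of complex I and comes from the promoter of the other strand. It had 255 and 139 counts in the Tfh and 317 and 131 in the non-Tfh libraries. Its levels were 41.2 and 46.8 CPM per kilobase in Tfh and 45.5 and 28.4 in non-Tfh libraries, so the groups overlapped (fold 1.18, adjusted p = 0.66). Tfh was lower within T32, at 0.905 of non-Tfh, and higher within T53, at 1.65 times non-Tfh. Without non-Tfh T53 the log2 fold change was -0.056, and without non-Tfh T32 it was 0.63, against 0.23 with all libraries. Per length mt-Nd6 stood at 0.151 to 0.311 of mt-Nd5, its neighbour on the opposite strand, with which it shares 14 bases. Whether the counting used strand is not given in the sources used here, so reads of the opposite strand may be among its counts.

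Nearly no counts fell on mt-Nd4l (ENSMUSG00000065947, chrM:9877-10173), a complex I subunit whose mRNA also carries mt-Nd4. Each T32 library had 1 count and each T53 library had 0. At the counts per base of mt-Nd4 it would have had 759 to 1095 counts per library. Its sequence is shown because a pseudogene on chromosome 1, Gm10222 (24612407 to 24612700), matches it in all 294 bases of the pseudogene; capitals mark the bases beyond that match. The sequence is from GENCODE M21 on GRCm38, plus strand.
mt-Nd4l: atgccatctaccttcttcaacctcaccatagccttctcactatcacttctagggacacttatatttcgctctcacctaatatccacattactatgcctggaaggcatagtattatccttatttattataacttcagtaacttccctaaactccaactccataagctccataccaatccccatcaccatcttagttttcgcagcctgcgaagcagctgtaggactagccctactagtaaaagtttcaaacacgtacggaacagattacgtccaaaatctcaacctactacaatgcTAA
Gm10222 was counted too, and it had 0 counts in every library. Of the 75-base windows of mt-Nd4l, the length of a read here, 98.7% occurred exactly in Gm10222.

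Gm10222 is 1 of 7 pseudogenes that lie side by side on chromosome 1 between 24611535 and 24616197, a nuclear copy of part of the mitochondrial genome. The others match mt-Co1, mt-Co2, mt-Atp6, mt-Co3, mt-Nd3 and mt-Nd4. The copies of mt-Co2, mt-Atp6 and mt-Co3 had 0 mismatches over 681, 678 and 783 aligned bases, and that of mt-Nd3 had 1 over 345. Of the 75-base windows, 99.5% of mt-Co2, 99.5% of mt-Atp6, 99.9% of mt-Co3, 97.8% of mt-Nd3, 61.5% of mt-Nd4 and 39.8% of mt-Co1 occurred exactly in a nuclear transcript of GENCODE M21. These 6 genes had 1556 to 90826 counts per library, unlike mt-Nd4l. Apart from Gm10222, the pseudogenes of this stretch had no identifier among those counted here, so they have no counts. Counting only nuclear genes with an identifier among those counted here, the share of windows matched was 98.7% for mt-Nd4l, 22.6% for mt-Co2, 14.96% for mt-Co1, 5.71% for mt-Nd2, 1.66% for mt-Nd5 and 0 for the other mRNAs and both rRNAs. For mt-Co2, mt-Co1 and mt-Nd2 these matches lay in the chromosome 2 pseudogenes Gm13341, Gm13340 and Gm13339. Gm13341 had 6 and 3 counts in Tfh and 4 and 1 in non-Tfh libraries. Gm13340 had 7 and 4 counts in Tfh and 12 and 9 in non-Tfh libraries. Gm13339 and the pseudogenes matching mt-Nd5, Gm11407 and Gm4076, had 0 counts in every library. The part that reads matching several places had in the level of any of these mitochondrial genes was not tested. No window of mt-Nd1, mt-Atp8, mt-Nd6, mt-Cytb or the rRNAs occurred in a nuclear transcript.

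**Figure D4:**
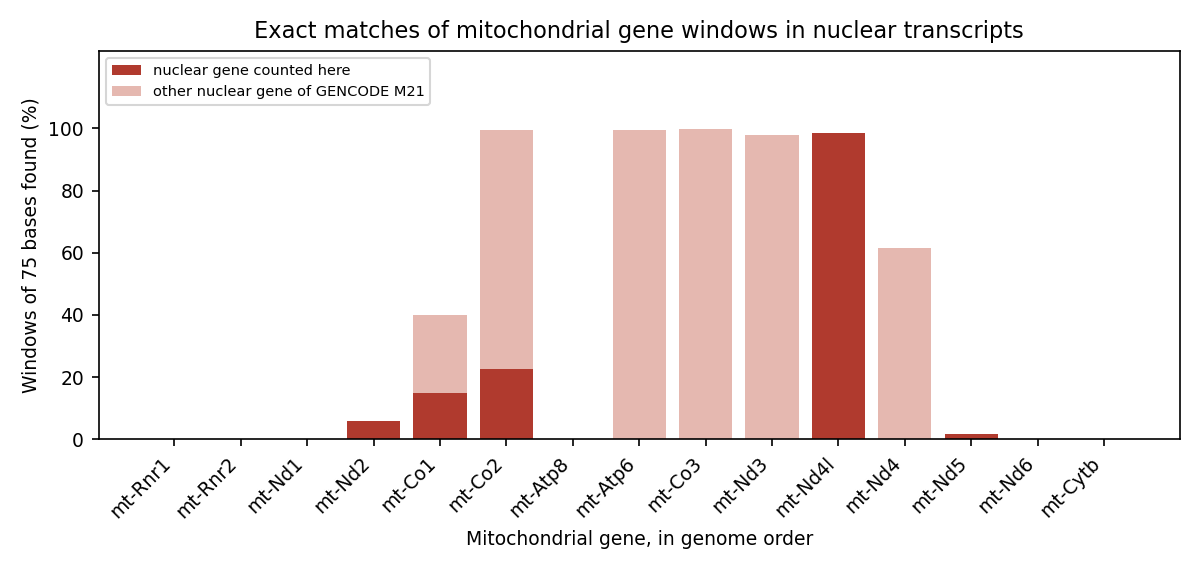
Share of the 75-base windows of each mitochondrial mRNA and rRNA gene (x axis, genome order) that occurs exactly in a nuclear transcript, in percent (y axis), dark where that nuclear gene has an identifier among those counted here and light otherwise. For mt-Nd4l the bar is dark throughout at 98.7%, and for mt-Atp6, mt-Co3, mt-Nd3 and mt-Nd4 it is light throughout.

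Transfer RNAs were nearly uncounted. Of 22 tRNA genes 19 had 0 counts in every library, and all 22 together had 5 counts over the 4 libraries. They were mt-Tl1, the tRNA for a leucine codon family, with 1 count in Tfh T32 and 2 in non-Tfh T32, mt-Tm, the methionine tRNA, with 1 in non-Tfh T32, and mt-Th, the histidine tRNA, with 1 in non-Tfh T32. Both T53 libraries had 0, which allows a share of up to 5.24e-05% in Tfh T53 and 3.47e-05% in non-Tfh T53 at 3 counts. The genes are 59 to 75 bases long, at most the length of 1 read. Those with counts are shown for their length, from GENCODE M21 on GRCm38, plus strand, at chrM:2676-2750, chrM:3845-3913 and chrM:11546-11612.
mt-Tl1: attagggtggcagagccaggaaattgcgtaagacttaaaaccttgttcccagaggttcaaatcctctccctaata
mt-Tm: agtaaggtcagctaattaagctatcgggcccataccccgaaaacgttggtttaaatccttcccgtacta
mt-Th: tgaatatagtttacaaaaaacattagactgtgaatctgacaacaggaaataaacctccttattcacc
No tRNA could be compared between the groups with so few counts.

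Libraries of the same group differed by gene, for several genes in the same direction in both groups. The T53 library exceeded the T32 library for mt-Nd4 by 1.44-fold in Tfh and 1.34-fold in non-Tfh cells, and for mt-Nd5 by 1.31-fold and 1.28-fold. For mt-Rnr2 the T53 library was at 0.844 of T32 in Tfh and 0.828 in non-Tfh cells, and for mt-Atp8 at 0.894 and 0.938. In 10 of the 14 tested genes, 9 of them mRNAs, the fitted log2 fold change exceeded in size both log2 ratios of T53 over T32. The genes where it did not were mt-Rnr2, mt-Nd4, mt-Nd5 and mt-Nd6. For mt-Rnr1 the margin was small, at 0.283 against 0.274 in Tfh. How many of all genes tested show this was not counted, so it is not a trait of these genes. The T53 libraries were also the shallower ones, with totals of 5725358 and 8636056 counts against 12354113 and 13360563, and the part of depth in these differences was not tested. Within T32 the Tfh library was higher in 11 of 12 mRNAs, all but mt-Nd6, and within T53 in 12 of 12. Of all 11702 genes tested, 5741 were higher in Tfh within T32 and 5839 within T53.

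**Figure D5:**
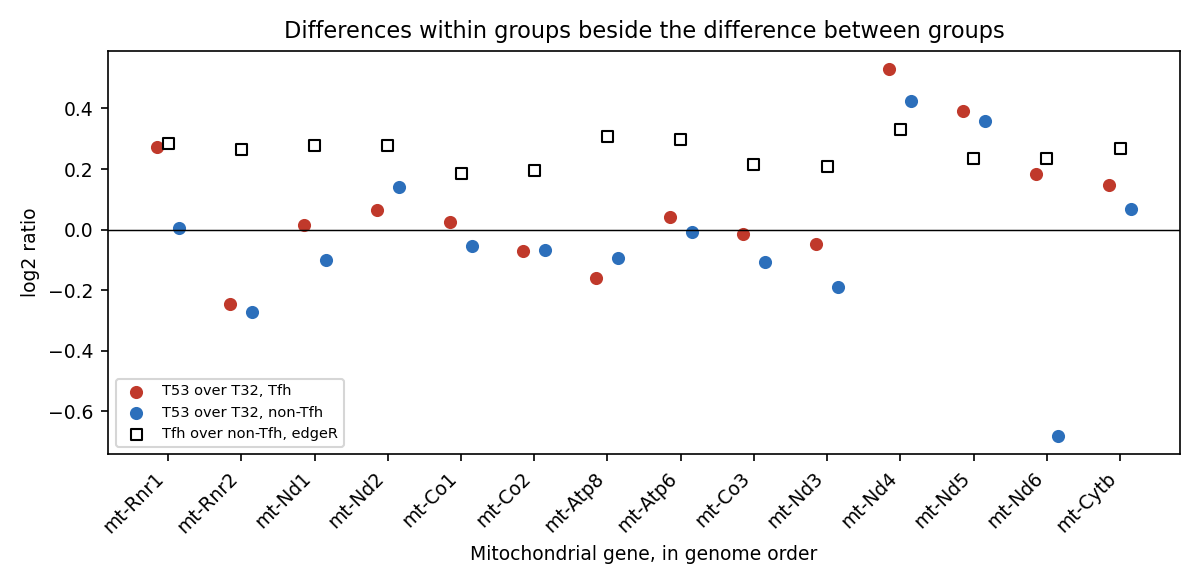
The log2 ratio (y axis) of T53 over T32 in Tfh (red) and in non-Tfh libraries (blue), beside the edgeR log2 fold change of Tfh over non-Tfh (open squares), for the 14 tested genes in genome order (x axis). For mt-Nd4 and mt-Nd5 both circles lie above the square, for mt-Rnr2 both lie below 0, and for mt-Nd6 the non-Tfh circle lies at -0.68.

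The makeup of the mitochondrial mRNA pool was similar in the 4 libraries. As shares of the mitochondrial mRNA counts, mt-Co1 made up 42.2% and 41.9% in Tfh and 43.4% and 42.8% in non-Tfh libraries. It was followed by mt-Co3 with 15.5 to 16.3%, mt-Co2 with 10.1 to 10.9% and mt-Atp6 with 9.73% and 9.77% in Tfh and 9.16% and 9.33% in non-Tfh libraries. These shares did not overlap between groups for mt-Co1, lower in Tfh, or for mt-Atp6 and mt-Nd1, higher in Tfh, and they overlapped for the other 10 (exact permutation test, two-sided, p = 0.333 for mt-Co1, mt-Atp6 and mt-Nd1 alike, with 13 genes compared, so that none could pass). For mt-Nd4 the share was 2.40% and 3.38% in Tfh and 2.27% and 3.11% in non-Tfh libraries, so it differed more between T32 and T53 than between the groups.

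Nuclear genes that copy, transcribe, process and degrade mitochondrial DNA and RNA were listed from general knowledge together with regulators of their expression. None of the genes that act on mitochondrial DNA or RNA passed the test, and 1 regulator, Pprc1, fell. Of the 56 genes 55 were tested, all but Ppargc1a, with 0 higher and 1 lower in Tfh cells, against 4.47% higher and 4.02% lower among all genes tested. Their median log2 fold change was -0.0998, with 21 positive and 34 negative values. The libraries of the groups did not overlap for 4 of the 55 with Tfh higher and for 14 with Tfh lower, against 26.6% and 25.6% of all genes tested. Pprc1 encodes a coactivator related to PGC-1 that promotes nuclear genes for mitochondria. Its level was 39.7 and 37.7 CPM in Tfh and 54.3 and 67.3 CPM in non-Tfh libraries, a log2 fold change of -0.65 ± 0.148 (edgeR adjusted p = 0.049). This call stood in 6 of 13 other settings, with adjusted p from 0.000732 to 0.215. Leaving out a library ended it for Tfh T32 (adjusted p = 0.137), Tfh T53 (0.215) and non-Tfh T53 (0.125). The mitochondrial RNA polymerase gene Polrmt measured 32.3 and 34.8 CPM in Tfh and 34.4 and 41.1 CPM in non-Tfh libraries (adjusted p = 0.582). Tfam, which packages mitochondrial DNA and starts its transcription, measured 52.0 and 51.2 against 60.8 and 48.1 CPM (adjusted p = 0.821). Lrpprc, which binds and stabilises mitochondrial mRNAs, measured 72.2 and 75.8 against 84.0 and 90.8 CPM, with both Tfh libraries lower (log2 fold change -0.24 ± 0.114, adjusted p = 0.29).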

How the data were processed

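Stranded total RNA libraries of 4 samples were read in pairs of 75 bases. The authors deposited raw counts per Ensembl gene, 1 file per library, made with TopHat2, Bowtie2 and HTSeq on GRCm38 (mm10), per the submitters' processing notes. Versions, annotation release, strand setting and the handling of reads with several matches are not given in the sources used here. GENCODE M21 (GRCm38) gave symbols for 37607 of 39179 identifiers, and positions and sequences.

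Groups came from the labels. Genes were kept by filterByExpr, scaled by TMM (trimmed mean of M-values) and tested with edgeR 4.0.16 in R 4.3.3 by robust quasi-likelihood, group alone, two-sided. P-values of all 11702 genes were adjusted after Benjamini and Hochberg, with 0.05 as the threshold. CPM are TMM-scaled, SE was derived from the fold change and its F value, and 95% intervals use the moderated degrees of freedom. Alternatives used other scalings, DESeq2 1.42.0, limma 3.58.1, other count filters, a replicate block and each library left out. The code was tested on simulated data. Exact permutation tests, window matches and alignments (Biopython 1.88) ran in Python 3.11.15. All mitochondrial genes were described, and from the nuclear list the called genes with Polrmt, Tfam and Lrpprc. Members and lists were chosen with earlier results of these data known. One cell type marker is not reported here.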

Additional observations from a re-analysis of the deposited data

How the results depend on the processing

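The log2 fold changes of the 14 tested mitochondrial genes stayed positive and uncalled in 179 of 182 combinations of gene and setting. The exceptions were mt-Nd6, at -0.056 to 0.63 with a library left out, and mt-Atp8 and mt-Nd4, called with a replicate block (adjusted p = 0.048 and 0.0492), which made 2 mRNAs called. The block also called 2120 genes of all tested; T32 and T53 occur in both groups but the labels do not say what they mark, so it was not the main model, although the T53 minus T32 differences of both groups correlated at 0.37 across genes. The median of the mRNAs was 0.24 to 0.30 with a library left out. All genes called numbered 1986 without a count filter and 545 to 884 with a library left out, the fewest without Tfh T53. Calls in the nuclear list were 0 with scaling from nuclear genes only, limma-voom, at least 5 CPM in 2 libraries and no robust option, 2 without a count filter, and 0 to 2 with a library left out. Tfam ran from -0.24 to 0.10 with a library left out. As a percentage of nuclear counts the mRNA difference was 0.321 points in place of 0.198. The cause of these changes was not tested. No tRNA passed the filter, so settings with that filter gave no value for tRNAs. With 2 libraries per group and leaving one out, the lone library is assumed to vary like the others.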
